A study of Mus musculus with 23 samples.

Results

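The MiT family consists of 4 related transcription factors, and the arrays carried 6 probes for them among 33391 probes with an NCBI accession. The probes were found by matching the accession of each probe to the genes *Tfec* (1 probe, named *Tcfec* on older lists), *Mitf* (2 probes), *Tfeb* (1 probe) and *Tfe3* (2 probes), that is 4 of 26512 genes. Total RNA of bone marrow-derived macrophages (BMDM) was labelled with Cy3 and measured on 23 single-colour Agilent arrays, 1 per sample. BMDM came from male wild-type (wt) mice, from mice without the protein kinase MK2 (MK2-/-) and from mice without both MK2 and the related kinase MK3 (MK2/3-/-), and for 120 min the cultures received either medium alone or lipopolysaccharide (LPS) at 100 ng/ml. The study asks which of the transcripts that respond to LPS depend on these kinases.

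Each group had 4 arrays except MK2-/- BMDM in medium, which had 3. Macrophages had been grown from the marrow over 9 days in M-CSF (10 ng/ml). The strain is labelled C57BL/6 in all groups, and per the labels the mice were 12 to 13 weeks old for wt, 10 to 13 weeks for MK2-/- and 11 to 14 weeks for MK2/3-/-. In both knockout lines the genes are disrupted throughout the animal, and so in the bone marrow cells before and during differentiation. All arrays of a genotype were on 1 slide, and genotype and slide cannot be told apart. Within each slide, medium and LPS arrays occupied different rows, and treatment and array row cannot be told apart either. Signals are given as normalized log2 values, so that 1 unit is a doubling, and a difference is called when its adjusted p in limma, over all 33391 probes, was below 0.05.

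MiT factors share a basic helix-loop-helix leucine zipper through which they form homodimers and heterodimers with one another and bind E-box and M-box motifs. TFEB and TFE3 are best known for switching on lysosomal and autophagy genes when the kinase complex mTORC1 at the lysosome is inactive, MITF for its role in melanocytes and osteoclasts, and TFEC for its restricted expression in cells of the macrophage lineage. As TFEB, TFE3 and MITF are also controlled by phosphorylation and by their location in the cell, transcript levels describe only part of their activity.

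All 6 probes were well above background on all 23 arrays, and none had a missing value. *Tfec* lies at chr6:16830927-16898464, *Mitf* at chr6:97807002-98021360, *Tfeb* at chr17:47737037-47792416 and *Tfe3* at chrX:7762530-7775202 (GRCm38.p6, RefSeq). The genes of the deleted kinases are on chromosomes 1 (*Mapkapk2*) and 9 (*Mapkapk3*), so that no family gene shares a chromosome with them. The targeted genes followed the labels, since after LPS the *Mapkapk2* signal was lower by -2.81 ± 0.25 (log2, SE) in MK2-/- than in wt BMDM and the *Mapkapk3* signal was lower by -3.27 ± 0.17 in MK2/3-/- than in MK2-/- BMDM. Transcript signal of the targeted genes remained, as the *Mapkapk2* probe was well above background on all knockout arrays (mean log2 signal 11.96 after LPS in MK2-/- and 11.76 in MK2/3-/- BMDM) and rose with LPS in MK2-/- BMDM by 3.05 ± 0.27, or 8.26-fold (adjusted p = 1.11e-07). The *Mapkapk3* probe had a mean of 10.70 after LPS in MK2/3-/- BMDM. Where these probes lie relative to the deleted parts is not given in the sources used here.

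Of the macrophage markers, all 6 measured were well above background on every array, and the probe of *Csf1r*, the M-CSF receptor, was the brightest. Their summed linear signal had a median of 679445 in wt BMDM in medium and of 579207 after LPS. The 6 melanocyte markers, which would accompany MITF of another lineage, reached summed linear signals of at most 249, and 1 to 3 of them per array were well above background. The 7 mast cell and basophil markers summed to at most 848.

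The RefSeq start sites used here numbered 9 for the 4 genes. Those of *Tfec*, *Mitf* and *Tfe3* lie inside the gene spans given above, so that the end of the *Tfec* window is part of its span. The 250 bases before each site were searched on both strands for GGAAGT (a core bound by PU.1 and other ETS factors), the E-box CACGTG, the M-box TCATGTG, the AP-1 motif TGANTCA and the NF-kB consensus. The window of *Tfec* (chr6:16898442-16898691, minus strand, GRCm38.p6) and the window of *Mitf* with a match (chr6:97929567-97929816, plus strand, the second of 3) are shown because *Tfec* and *Mitf* are the genes whose signal rose most. The *Mitf* start lies within the span of the gene given above, where shorter transcripts begin. Matches are in capitals, with GGAAGT in the first and the NF-kB consensus in the second.

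Tfec: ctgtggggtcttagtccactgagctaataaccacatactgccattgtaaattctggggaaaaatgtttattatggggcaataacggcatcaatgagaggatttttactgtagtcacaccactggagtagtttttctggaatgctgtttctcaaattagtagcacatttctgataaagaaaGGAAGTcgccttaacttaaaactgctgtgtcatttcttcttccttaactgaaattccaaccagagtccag
Mitf: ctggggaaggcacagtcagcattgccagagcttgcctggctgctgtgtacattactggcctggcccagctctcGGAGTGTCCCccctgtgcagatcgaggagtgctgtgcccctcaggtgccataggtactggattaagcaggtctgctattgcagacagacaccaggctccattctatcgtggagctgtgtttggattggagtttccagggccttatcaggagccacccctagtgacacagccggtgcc

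GGAAGT was present in 19.7% of the 32851 windows of all genes and the NF-kB consensus in 7.25%. The only other match was GGAAGT in the first window of *Tfe3*. No window of the family held the E-box, the M-box or the AP-1 motif, which were present in 6.02%, 3.25% and 6.75% of all windows. No motif matched in the 3 windows of *Tfeb*.

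Treatment with LPS raised *Tfec* and *Mitf*, lowered *Tfeb* and left the brighter of the 2 *Tfe3* probes without a call in all 3 genotypes. Of the 6 probes, 3 rose and 1 fell in wt BMDM, where 17.8% of all probes were called. The same count of 3 and 1 was found in MK2-/- BMDM (19.2% of all probes called), and 4 rose and 1 fell in MK2/3-/- BMDM (25.9%).

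*Tfec* was the most responsive member. In wt BMDM its log2 signals in medium were 7.53, 7.29, 7.27 and 7.59, and after LPS they were 12.61, 12.57, 12.28 and 12.26. Every LPS array lay more than 4 units above every medium array, and the spread within a group was small beside this distance. The log2 difference was 5.01 ± 0.21 (SE), a 32.2-fold rise (adjusted p = 2.34e-12 in limma), which ranked 111th from the top of 33391 probes.

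In MK2-/- BMDM the *Tfec* signals in medium were 8.27, 7.45 and 7.43, and after LPS 13.11, 13.00, 13.02 and 12.46. In MK2/3-/- BMDM they were 7.68, 7.92, 7.85 and 7.46 in medium, and 13.14, 12.84, 12.88 and 12.26 after LPS. Medium and LPS arrays did not overlap in either knockout. The log2 difference was 5.18 ± 0.22 in MK2-/- BMDM, or 36.2-fold (adjusted p = 7.14e-12). It was 5.05 ± 0.21 in MK2/3-/- BMDM, or 33.2-fold (adjusted p = 2.26e-12). Within single cultures, of which 11 had both a medium and an LPS array, the log2 rise ranged from 4.67 to 5.55. An exact permutation test of the wt arrays gave p = 0.0286, the smallest that 4 against 4 unpaired arrays allow. This test did not keep the pairing of medium and LPS arrays by culture.

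*Mitf* rose less. The brighter of its 2 probes gave 12.95, 13.81, 13.39 and 13.25 in wt BMDM in medium, and 14.84, 15.55, 14.89 and 13.95 after LPS. In MK2-/- BMDM the values were 13.35, 13.85 and 13.87 in medium and 14.98, 16.03, 15.12 and 14.22 after LPS. In MK2/3-/- BMDM they were 13.53, 14.25, 13.58 and 13.82 in medium and 15.06, 15.54, 14.84 and 14.14 after LPS. The groups did not overlap in wt and MK2-/- BMDM, whereas in MK2/3-/- BMDM 1 LPS array lay below the highest medium array.

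In wt BMDM the log2 difference of this probe was 1.46 ± 0.36, or 2.75-fold (adjusted p = 0.00739). It was 1.40 ± 0.39 without MK2 (adjusted p = 0.0157) and 1.10 ± 0.36 without both kinases (adjusted p = 0.0308). The dimmer probe gave 1.52 ± 0.36, 1.51 ± 0.39 and 1.15 ± 0.36, each of them called, so that both probes of *Mitf* moved alike. *Mitf* rose in all 11 cultures on both probes, by 0.32 to 2.18 on the brighter one. The wt calls of both probes held without any 1 of the 23 arrays, but the methods' two-sample test, adjusted in the same way, called neither probe in any genotype (in wt BMDM, adjusted p = 0.0593 on log2 and 0.124 on linear values for the brighter probe, and 0.0643 and 0.12 for the dimmer one). On the brighter probe the MK2-/- call was lost without MK2-/- medium replicate 1 (1.23, adjusted p = 0.0779) or MK2-/- LPS replicate 2 (1.08, adjusted p = 0.0633), and the MK2/3-/- call without any 1 of 6 of the 8 MK2/3-/- arrays, medium replicate 2 and LPS replicate 4 being the exceptions, with values from 0.89 to 1.12. On the dimmer probe the MK2-/- call was lost without MK2-/- medium replicate 1 (1.27, adjusted p = 0.0609), and the MK2/3-/- call without MK2/3-/- medium replicate 3 or 4 or LPS replicate 2 or 3, with values from 1.00 to 1.02.

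*Tfeb* fell. In wt BMDM its log2 signals were 9.58, 9.80, 9.65 and 9.53 in medium, and 6.93, 5.87, 7.58 and 8.63 after LPS. The MK2-/- values were 9.92, 10.02 and 9.65 in medium, and 7.86, 6.34, 7.57 and 9.10 after LPS. In MK2/3-/- BMDM they were 10.10, 9.84, 9.57 and 9.58 in medium, and 6.92, 5.86, 7.31 and 8.82 after LPS. Every LPS array lay below every medium array of its genotype, and the LPS arrays were far more dispersed, with an SD of 1.16 (n = 4) after LPS against 0.12 (n = 4) in medium for wt BMDM.

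The log2 difference of *Tfeb* in wt BMDM was -2.39 ± 0.58, that is 5.24-fold lower after LPS (adjusted p = 0.00635). It was -2.15 ± 0.63 without MK2 (adjusted p = 0.0205) and -2.55 ± 0.58 without both kinases (adjusted p = 0.00263). The fall was seen in 11 of 11 cultures and ranged from -0.54 to -3.98 in single cultures. The methods' two-sample test on log2 values did not call it in wt (adjusted p = 0.0515) or MK2-/- BMDM (adjusted p = 0.107), whereas that on linear values did (adjusted p = 0.0111 and 0.0362). In MK2-/- BMDM it was no longer called without MK2-/- LPS replicate 2 (-1.69, adjusted p = 0.0799), without MK2-/- medium replicate 1 (-2.12, adjusted p = 0.0615) or without MK2-/- medium replicate 2 (-2.07, adjusted p = 0.0671).

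The 2 probes of *Tfe3* differed in their response. On the brighter probe wt BMDM had log2 signals of 13.58 to 13.95 in medium and 13.61 to 14.46 after LPS, which overlapped, and the differences of 0.18 ± 0.21 (wt), 0.22 ± 0.22 (MK2-/-) and 0.35 ± 0.21 (MK2/3-/-) were not called (adjusted p = 0.666, 0.58 and 0.248). On the dimmer probe the differences were 0.74 ± 0.27, 0.51 ± 0.29 and 1.02 ± 0.27, of which only that in MK2/3-/- BMDM was called (adjusted p = 0.00801), and this not by the methods' two-sample test (adjusted p = 0.0509 on log2 values). The wt difference on this probe was just above the threshold (adjusted p = 0.0688) and was called with the culture as a replicate block (adjusted p = 0.0197), without wt LPS replicate 1 (0.88, adjusted p = 0.0438) and without MK2-/- LPS replicate 4 (0.74, adjusted p = 0.0486). With the arrays scaled to their 75th percentile instead of quantile normalized, the median of all genes shifted by 0.14 (wt), 0.20 (MK2-/-) and 0.09 (MK2/3-/-), and the brighter probe was called in all 3 genotypes with 0.55, 0.64 and 0.75. Of all probes called in wt BMDM, 43.5% were higher after LPS with quantile normalization and 53.6% with this scaling.

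**Figure D1:**
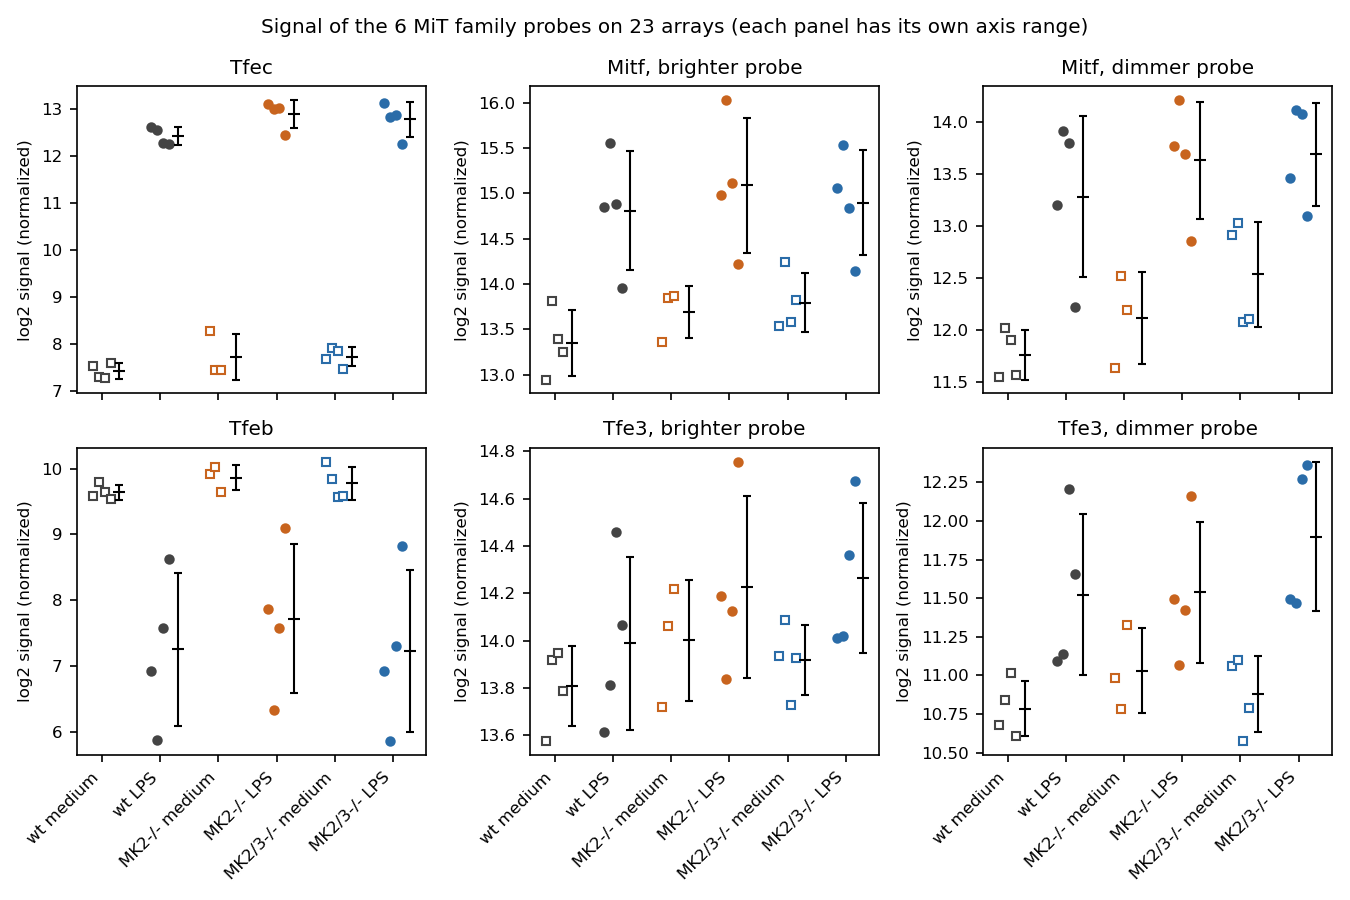
Normalized log2 signal of the 6 MiT family probes (vertical axis, a separate range in each panel) in the 6 groups (horizontal axis), with open squares for medium arrays, filled circles for LPS arrays, and the mean with SD beside them (n = 4, or 3 for MK2-/- medium). *Tfec* arrays in medium sit between 7.27 and 8.27 and LPS arrays between 12.26 and 13.14, whereas LPS arrays of *Tfeb* spread from 5.86 to 9.10.

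The order of the groups was much the same as the order of the treatments. For *Tfec* the 3 LPS groups came first, with means of 12.90 ± 0.30 (SD, n = 4) in MK2-/-, 12.78 ± 0.37 (n = 4) in MK2/3-/- and 12.43 ± 0.19 (n = 4) in wt BMDM. The medium groups followed with 7.73 ± 0.20 (n = 4) in MK2/3-/-, 7.72 ± 0.48 (n = 3) in MK2-/- and 7.42 ± 0.17 (n = 4) in wt BMDM. Neighbouring groups in this order overlapped, except at the step of 4.70 between LPS and medium. For *Tfeb* the order was reversed, with MK2-/- BMDM in medium highest (9.86 ± 0.20, n = 3), MK2/3-/- BMDM after LPS lowest (7.23 ± 1.23, n = 4), and a single step without overlap, of 1.92, between medium and LPS. The 6 groups of the brighter *Tfe3* probe all overlapped with their neighbours.

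Between genotypes after LPS, the family was tested with the question whether its response depends on MK2 or MK3. No family probe was called between MK2-/- and wt BMDM (0.0299% of all probes called), between MK2/3-/- and wt BMDM (1.72%) or between MK2/3-/- and MK2-/- BMDM (0.159%). *Tfec* is among the genes that the study picked from these same arrays by their ratio between genotypes, and its direction here is therefore not independent evidence.

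The *Tfec* signal after LPS was 0.47 (log2, 95% interval 0.03 to 0.91) above wt in MK2-/- BMDM, a ratio of linear means of 140%, with 4 of 4 arrays above the wt mean. In MK2/3-/- BMDM it was 0.35 (-0.08 to 0.79) above wt, or 130%, with 3 of 4 arrays above the wt mean. The groups overlapped in both cases, and neither difference passed the adjustment (adjusted p = 0.646 and 0.488 in limma, exact permutation p = 0.0857 and 0.171). The unadjusted p of the MK2-/- comparison was 0.0357 in limma. Between the knockouts the difference was -0.12 (-0.55 to 0.32, adjusted p = 0.97). In medium, *Tfec* was likewise 0.30 (-0.17 to 0.77) above wt in MK2-/- BMDM and 0.31 (-0.13 to 0.74) in MK2/3-/- BMDM, neither of them called.

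Across the other 5 probes the differences between genotypes after LPS ranged from -0.49 to 0.47, and both of these extremes belonged to *Tfeb*, whose intervals were the widest.

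As the codes of the LPS arrays carry the same 4 culture letters in each genotype, these comparisons were also made with the replicate number as a block shared by the genotypes, on the 12 LPS arrays alone, an alternative chosen after seeing the data. The intervals narrowed and no family probe was called. *Tfeb* was 0.49 lower in MK2/3-/- than in MK2-/- BMDM in this fit (95% interval -0.86 to -0.12, adjusted p = 0.353 in limma), compared with an interval of -1.72 to 0.73 without the block. By replicate number these differences were -0.94, -0.48, -0.27 and -0.28, that is lower in 4 of 4 pairs. *Mitf* on its brighter probe was 0.28 higher in MK2-/- than in wt BMDM (0.01 to 0.55, adjusted p = 0.508), with differences of 0.14, 0.48, 0.23 and 0.27. On its dimmer probe 3 of 4 pairs were higher, with a difference of 0.35 (-0.04 to 0.73, adjusted p = 0.551). Other intervals of this fit that did not include 0 were those of *Tfeb* in MK2-/- against wt BMDM, with 0.47 (0.10 to 0.83, adjusted p = 0.471) and 3 of 4 pairs higher, and of the dimmer *Mitf* probe in MK2/3-/- against wt BMDM, with 0.40 (0.02 to 0.79, adjusted p = 0.272) and 4 of 4 pairs higher. *Tfec* was higher than wt in 4 of 4 pairs for MK2-/- BMDM (0.18 to 0.76, adjusted p = 0.396) and in 4 of 4 pairs for MK2/3-/- BMDM (0.06 to 0.64, adjusted p = 0.212), although its difference in replicate 4 of the latter was only 0.0060.

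In medium no family probe was called in MK2-/- against wt BMDM (0.015% of all probes called), in MK2/3-/- against wt BMDM (0.0719%) or in MK2/3-/- against MK2-/- BMDM (0.0479%). The largest difference in medium was that of the dimmer *Mitf* probe, 0.77 (0.01 to 1.53) higher in MK2/3-/- than in wt BMDM, where the 4 MK2/3-/- arrays (12.08 to 13.03) did not overlap with the 4 wt arrays (11.55 to 12.03). This difference did not pass the adjustment either (unadjusted p = 0.0476 in limma), and on the brighter *Mitf* probe it was 0.45 (-0.32 to 1.21). On the dimmer probe, MK2/3-/- medium replicates 1 and 2 were at 12.91 and 13.03, and replicates 3 and 4 at 12.08 and 12.11. Without replicates 1 and 2, the arrays of lowest and highest detection in that group, the difference was 0.33. These arrays were chosen after seeing the data.

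The LPS response itself was compared between genotypes within the slides. For *Tfec* the response of MK2-/- BMDM was 0.17 (-0.47 to 0.81) larger than that of wt, and the response of MK2/3-/- BMDM was 0.04 (-0.57 to 0.66) larger. No family probe was called in the first comparison (0.00299% of all probes called), in the second (0.012%) or between the knockouts (0% in limma, with 981 probes at an unadjusted p below 0.05 and 1 probe called with the culture as a replicate block). The intervals of *Tfeb* reached from -1.56 to 2.04 for MK2-/- and from -1.89 to 1.57 for MK2/3-/- against wt BMDM.

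Markers of fibroblasts and stromal cells were the non-macrophage list that varied most between arrays. Of its 5 measured genes, 2 to 5 were well above background per array, and the probe of *Col1a2* was the brightest. The summed linear signal had a median of 27885 (4490 to 105784) in wt BMDM in medium and of 27119 (3894 to 87750) after LPS, against 2355 (1243 to 34631) and 5011 (1478 to 32259) in MK2-/- BMDM and 6132 (543 to 58990) and 6995 (885 to 48991) in MK2/3-/- BMDM. Their part in the differences between genotypes was not tested. In RNA of whole cultures, fewer cells of a type and less RNA per cell cannot be told apart.

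**Figure D2:**
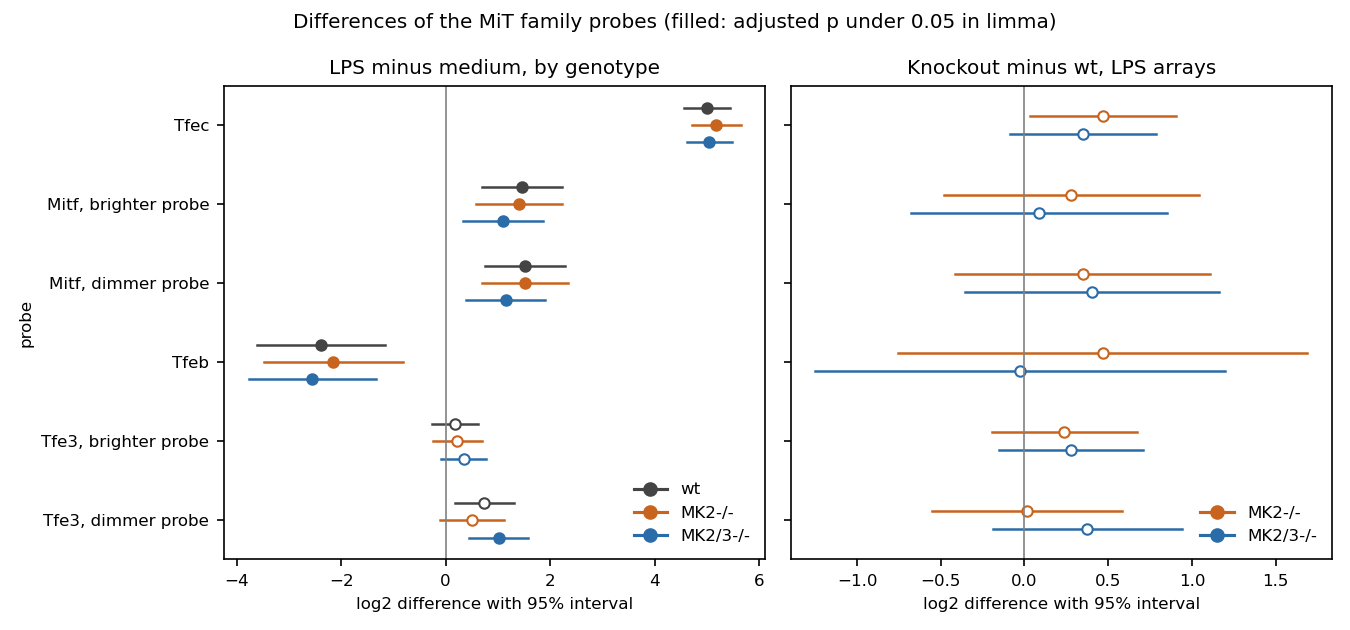
Log2 differences of the 6 MiT family probes (horizontal axis) with 95% intervals from limma, on the left for LPS against medium in each genotype and on the right for each knockout against wt on LPS arrays; filled circles have an adjusted p below 0.05. The responses of *Tfec* at 5.01, 5.18 and 5.05 are close to each other, and all circles on the right are open.

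The dispersion of the LPS arrays had a shared form. LPS replicate 2 had the lowest *Tfeb* signal in every genotype (5.87 in wt, 6.34 in MK2-/-, 5.86 in MK2/3-/-) and LPS replicate 4 the highest (8.63, 9.10 and 8.82). For *Mitf* the ends were exchanged, with LPS replicate 2 highest on the brighter probe (15.55, 16.03 and 15.54) and LPS replicate 4 lowest (13.95, 14.22 and 14.14). The arrays of the genotypes were on different slides, whereas equal replicate numbers had equal column positions on them. The medium arrays of the same columns did not share this dispersion for *Tfeb*. Their ranges were 9.53 to 9.80 in wt, 9.65 to 10.02 in MK2-/- and 9.57 to 10.10 in MK2/3-/- BMDM. In medium, replicate 2 had the highest *Tfeb* signal in wt and MK2-/- BMDM, the opposite of its place after LPS, but not in MK2/3-/- BMDM. The brighter *Mitf* probe was highest in replicate 2 in medium too in wt (13.81, against 12.95 to 13.39) and MK2/3-/- BMDM (14.25, against 13.53 to 13.82), but not in MK2-/- BMDM.

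This form was not specific to the family. Of 2549 probes called lower by LPS in all 3 genotypes, 13.3% had replicate 2 lowest and replicate 4 highest in each genotype, and of 2010 probes called higher, 19.9% had the opposite ends, against 2.15% and 2.14% of all 33391 probes. *Tfec* had its lowest LPS signal in replicate 4 of each genotype (12.26, 12.46 and 12.26), but replicate 2 was not its highest in any of them.

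Some lists of markers of other cell types also had an end in LPS replicate 2. The summed linear signal of the 6 measured neutrophil markers, with the probe of *S100a9* or *Elane* as the brightest, was 12801 in LPS replicate 2 of wt BMDM (4110 to 7379 in the other 3 arrays), 12699 in MK2-/- BMDM (3185 to 6019) and 16651 in MK2/3-/- BMDM (3311 to 5381). That of the 5 dendritic cell markers, with the probe of *Siglech* as the brightest, was 169784 (68513 to 92416), 112125 (82696 to 93222) and 110887 (65841 to 76895). Per array, 5 or 6 of the neutrophil markers and 3 to 5 of the dendritic cell markers were well above background. Both sums were highest in replicate 2 of each medium group as well, and the lowest neutrophil sum of each LPS group was that of replicate 3 and not of replicate 4. The summed fibroblast and stromal markers were lowest in LPS replicate 2 of wt (3894, against 18976 to 87750) and MK2-/- BMDM (1478, against 2535 to 32259), though not of MK2/3-/- BMDM (1872, with 885 in replicate 1), and highest in LPS replicate 4 of MK2-/- (32259) and MK2/3-/- BMDM (48991), though not of wt BMDM (35262, with 87750 in replicate 1). The order of the cultures with both arrays was the same in medium as after LPS. The osteoclast sum was highest in LPS replicate 2 of wt (7094) and MK2-/- BMDM (7434), though not of MK2/3-/- BMDM (7905, with 8018 in replicate 1). For mast cells and basophils the sum was highest there in MK2-/- (683) and MK2/3-/- BMDM (679), though not in wt BMDM (681, with 698 in replicate 1). The lymphocyte sum was not highest in LPS replicate 2 of any genotype. Which cells carried these transcripts, macrophages included, cannot be told from RNA of whole cultures. The part of these markers in the form was not tested. Whether culture, handling or array position lies behind the form was not tested.

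**Figure D3:**
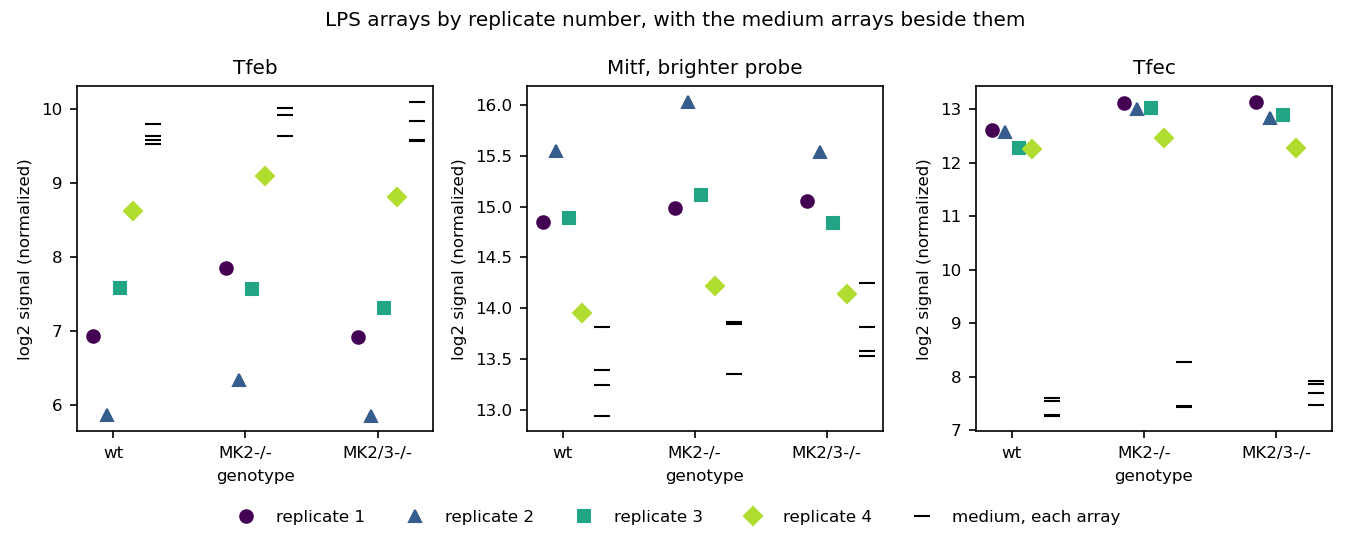
Normalized log2 signal (vertical axis) of *Tfeb*, the brighter *Mitf* probe and *Tfec* on the LPS arrays of each genotype (horizontal axis), with a symbol for each replicate number and black dashes for the medium arrays. Replicate 2 is lowest for *Tfeb* (5.86 to 6.34) and highest for *Mitf* (15.54 to 16.03) in all 3 genotypes, and replicate 4 is at the other end.

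The genes whose signal resembled that of *Tfec* most over the 23 arrays were *Exoc3l4* (Pearson r = 0.995), *Tnfaip2* (0.993), the transcript AK141540 (0.993), *Socs3* (0.992) and *Bcl2l11* (0.992), out of 16540 genes that were detected throughout at least 1 group. These correlations rest mostly on the step from medium to LPS, which the arrays of a group share, and are a description. For *Mitf* the most similar genes were *Cdc14a* (0.964), *Znrf1* (0.950) and *Usp42* (0.950), for *Tfeb* they were *Arhgap39* (0.982), *Trim62* (0.979) and *Abl1* (0.977), and for *Tfe3* they were *Elk3* (0.876), *Trerf1* (0.874) and *Kat5* (0.871). *Arhgap39* fell with LPS in wt BMDM by 2.06 on the log2 scale, as *Tfeb* did.

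Genes that act on the MiT factors, namely the Rag GTPases, the Ragulator and folliculin complexes, mTORC1, the TSC complex, calcineurin, GSK3 and mucolipin, fell or were not called. One probe per gene, the brightest, was used for all gene lists. Of 23 measured genes, 8 fell and none rose in wt BMDM, where 10.2% of all genes fell and 7.52% rose. In MK2-/- BMDM 9 fell and none rose, where 11.4% of all genes fell and 7.95% rose. In MK2/3-/- BMDM 11 fell and none rose, where 14.5% of all genes fell and 11.2% rose. The median log2 difference of the list in wt BMDM was -0.40, beside -0.03 over all 26512 genes and -0.11 over the 16544 genes that were well above background throughout at least 1 group, as all 23 genes of the list were. With scaling to the 75th percentile these medians were -0.06, 0.11 and 0.03. The count in wt BMDM was 5 with scaling to the 75th percentile and 13 with the culture as a replicate block.

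The largest change of the list was that of *Flcn*, which encodes folliculin, a partner of the Rag GTPases that helps to keep TFEB and TFE3 in the cytoplasm. The *Flcn* log2 signals in wt BMDM were 12.15, 13.11, 12.89 and 12.46 in medium and 9.68, 9.19, 9.56 and 9.93 after LPS. The MK2-/- values were 12.59, 13.24 and 12.72 in medium and 9.25, 9.27, 9.51 and 9.99 after LPS. The MK2/3-/- values were 12.71, 13.25, 12.99 and 12.54 in medium and 9.22, 9.19, 9.14 and 9.71 after LPS. The groups were far apart in each genotype, and the log2 differences of *Flcn* were -3.06 ± 0.24 in wt (adjusted p = 1.64e-08), -3.35 ± 0.26 without MK2 (adjusted p = 1.51e-08) and -3.56 ± 0.24 without both kinases (adjusted p = 1.62e-09).

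The folliculin-interacting proteins fell with it, *Fnip2* by 1.60 ± 0.38 in wt BMDM (adjusted p = 0.00562) and *Fnip1* by 1.16 ± 0.33 (adjusted p = 0.0176). The call of *Fnip1* in wt BMDM was lost without wt medium replicate 2 (-1.04), wt LPS replicate 1 (-1.06) or wt LPS replicate 2 (-1.01). That of *Fnip2* in wt BMDM was also lost under an alternative, with values from -1.81 to -1.37 over those run. *Mlst8*, a subunit of mTORC1 and mTORC2, fell by 1.97 ± 0.14 (adjusted p = 5.8e-09), while *Mtor*, the gene of the kinase, was not called in any genotype. *Rragc*, one of the Rag GTPases, and *Tsc1*, a subunit of the complex that restrains mTORC1, were the other members that fell in all 3 genotypes together with *Lamtor2* of the Ragulator complex, whose wt difference of -0.51 was not called without wt medium replicate 3 (-0.44, adjusted p = 0.0597). This call of *Lamtor2* was also lost under another alternative, and its wt difference ranged from -0.57 to -0.15 over those run. *Rptor* was called only in wt BMDM, which is no test of a difference between genotypes. The wt call of *Rptor* was lost under an alternative too, with values from -0.73 to -0.34 over those run. The calcineurin genes *Ppp3ca*, *Ppp3cb* and *Ppp3r1* were not called in any genotype.

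Of 22 lysosomal genes of the CLEAR network, the set with TFEB motifs in their promoters, 3 fell and none rose in wt BMDM, where 10.2% of all genes fell and 7.52% rose. In MK2-/- BMDM 1 fell and none rose (11.4% and 7.95% of all genes), and in MK2/3-/- BMDM 4 fell and 1 rose (14.5% and 11.2%). Among the 3 that fell in wt BMDM were *Pip4p1*, a lysosomal lipid phosphatase (-0.87 ± 0.29, adjusted p = 0.0441), and *Lamp1*, a lysosomal membrane protein (-0.29 ± 0.09, adjusted p = 0.0261). The median of the list in wt BMDM was -0.33, beside -0.11 over the genes well above background, and -0.01 beside 0.03 with scaling to the 75th percentile. Both calls were close to the threshold, as that of *Pip4p1* was lost without any 1 of 15 of the 23 arrays and that of *Lamp1* without wt medium replicate 2, wt medium replicate 3 or wt LPS replicate 1. The count that fell in wt BMDM ranged from none with scaling to the 75th percentile to 9 with the culture as a replicate block.

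Of 16 subunits of the vacuolar ATPase, the proton pump of lysosomes, 1 rose and 2 fell in wt, 2 rose and 3 fell in MK2-/- and 3 rose and 3 fell in MK2/3-/- BMDM. Over all genes, 7.52% rose and 10.2% fell in wt, 7.95% and 11.4% in MK2-/-, and 11.2% and 14.5% in MK2/3-/- BMDM. *Atp6v1e1* rose by 0.89 ± 0.19 in wt BMDM (adjusted p = 0.00173), *Atp6v1d* fell by 0.46 ± 0.11 (adjusted p = 0.00638) and *Atp6v0d1* by 0.43 ± 0.13 (adjusted p = 0.0302), the last of these without a call when wt medium replicate 1 or 2 or wt LPS replicate 1, 2 or 3 was left out (-0.44 to -0.37). Neither fall was called in any genotype with scaling to the 75th percentile, and with the culture as a replicate block 4 subunits fell in wt BMDM. The wt call of *Atp6v1e1* was lost under an alternative too, with values from 0.76 to 1.26 over those run.

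Of 21 autophagy genes, 8 fell and 1 rose in wt BMDM, 8 fell and 1 rose in MK2-/- BMDM, and 9 fell and 1 rose in MK2/3-/- BMDM, against shares over all genes of 10.2% and 7.52%, 11.4% and 7.95%, and 14.5% and 11.2%. The median of the list was -0.43 in wt BMDM, beside -0.11 over the genes well above background, and -0.22 beside 0.03 with scaling to the 75th percentile. The gene that rose was *Sqstm1*, which encodes the autophagy receptor p62, by 1.68 ± 0.25 in wt BMDM (adjusted p = 6.11e-05), by 2.32 ± 0.27 without MK2 (adjusted p = 3.23e-06) and by 1.97 ± 0.25 without both kinases (adjusted p = 6.34e-06). The differences between these responses and that of wt, 0.64 ± 0.37 without MK2 and 0.29 ± 0.35 without both kinases, were not called. *Vps18*, a subunit of the complexes that tether membranes for fusion with lysosomes, fell by 1.65 ± 0.15 in wt BMDM (adjusted p = 1.59e-07), and *Ulk1*, the kinase at the start of autophagy, by 1.24 ± 0.41 (adjusted p = 0.0426), a call that was lost without any 1 of 13 of the 23 arrays. Of the ATG8 family, whose proteins are attached to autophagosome membranes, *Map1lc3b* (-0.97 in wt BMDM), *Gabarapl1* (-0.67) and *Gabarapl2* (-0.35) fell in all 3 genotypes. With scaling to the 75th percentile the count that fell in wt BMDM was 4, and *Gabarapl2* was at 0.017. The wt call of *Gabarapl1* was also lost under an alternative, with values from -0.72 to -0.30 over those run.

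After LPS, *Vps18* was the only gene of all 6 lists called between MK2/3-/- and wt BMDM, where 0.928% of all genes were lower and 0.837% higher. Its difference was -0.60 (adjusted p = 0.0464 in limma), and the call was lost without any 1 of 17 of the 23 arrays, with scaling to the 75th percentile, with the culture as a replicate block (adjusted p = 0.0855), and with the block shared by the genotypes (adjusted p = 0.103).

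Of 7 known targets of MITF and TFE3 in osteoclasts and macrophages, 1 fell and none rose in wt, 1 fell and 1 rose in MK2-/- and 1 fell and none rose in MK2/3-/- BMDM, where 10.2%, 11.4% and 14.5% of all genes fell and 7.52%, 7.95% and 11.2% rose. The gene that fell was *Ostm1*, the partner of the chloride transporter CLC-7, and in wt BMDM it fell by 0.58 ± 0.17 (adjusted p = 0.0176). This fall was not called with scaling to the 75th percentile (-0.36), or without wt medium replicate 3, wt LPS replicate 1 or wt LPS replicate 2 (-0.52 to -0.47). *Acp5*, tartrate-resistant acid phosphatase, had a difference of 0.92 ± 0.41 in wt BMDM (adjusted p = 0.145), which was called with the culture as a replicate block (adjusted p = 0.0477) and without wt medium replicate 3 (1.38, adjusted p = 0.012). In MK2-/- BMDM it rose by 1.30 ± 0.44 (adjusted p = 0.0463), a call that was lost without any 1 of 15 of the 23 arrays. In wt BMDM *Clcn7* (-0.17), *Ctsk*, cathepsin K (-0.19), *Gpnmb* (-0.50), *Oscar* (0.36) and *Atp6v0d2* (-0.14) were not called, with adjusted p between 0.283 and 0.957, and *Clcn7* was at 0.090 with scaling to the 75th percentile. *Ctsk* varied widely between arrays, with an SD of 1.36 (n = 4) in medium and 1.42 (n = 4) after LPS.

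Markers of osteoclasts were lower in sum after LPS. Of the 6 measured, 4 or 5 per array were well above background, and the probe of *Dcstamp* or *Nfatc1* was the brightest. The summed linear signal had a median of 7938 (5758 to 15781) in wt BMDM in medium and of 4711 (2802 to 7094) after LPS. It was 8483 (8326 to 15816) and 4870 (4085 to 7434) in MK2-/- BMDM, and 10387 (6290 to 16690) and 6316 (3647 to 8018) in MK2/3-/- BMDM. The groups overlapped in wt and MK2/3-/- BMDM and did not in MK2-/- BMDM. Within each culture that had both arrays, the sum was lower after LPS. In wt BMDM it went from 9996 to 5293, from 15781 to 7094, from 5758 to 2802 and from 5881 to 4130. Single markers moved in opposite directions, as *Nfatc1*, a transcription factor of osteoclast formation, fell by 2.42 ± 0.33 in wt BMDM (adjusted p = 2.2e-05 in limma), *Ocstamp*, which takes part in cell fusion, rose by 2.06 ± 0.28 (adjusted p = 2.23e-05), and the other 4 were not called in any genotype. *Nfatc1* and *Ocstamp* were named after their values were seen. The part of these markers in the values of the MITF and TFE3 targets was not tested.

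As TFEC has been linked to the response of macrophages to interleukin 4, a list of 11 genes of that response was examined, of which 3 rose and none fell in wt BMDM, 3 rose in MK2-/- BMDM and 4 rose in MK2/3-/- BMDM, where 7.52%, 7.95% and 11.2% of all genes rose. *Ccl17*, a chemokine, rose by 6.13 ± 0.65 in wt BMDM (adjusted p = 1.04e-06). *Ccl22*, a related chemokine, was well above background on only 1 of 4 wt arrays in medium, compared with 4 of 4 after LPS, and was called higher (adjusted p = 1.1e-07), but the size of its difference depended on the background correction, with 7.55 on the processed signal and 4.22 after normexp correction. For *Ccl17* the latter gave 4.78, and the methods' t-test on linear values called neither gene in wt BMDM (adjusted p = 0.14 for *Ccl17* and 0.146 for *Ccl22*). *Il4ra*, the receptor chain for interleukin 4, rose by 1.50 ± 0.39 in wt BMDM (adjusted p = 0.00933), and by 1.51 ± 0.39 without both kinases (adjusted p = 0.00618), while its difference without MK2 was 0.64 ± 0.42 (adjusted p = 0.348). The response of *Il4ra* without MK2 minus that of wt was -0.86 ± 0.57, which was not called. *Csf3r*, the receptor for G-CSF, had a difference of -0.56 ± 0.28 in wt BMDM (adjusted p = 0.199), which was called without wt LPS replicate 2 (-0.85, adjusted p = 0.024). The alternative activation genes *Mrc1*, *Clec10a* and *Mgl2* were well above background on all 23 arrays and were not called in any genotype, whereas *Retnla* was above it on 1 array.

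**Figure D4:**
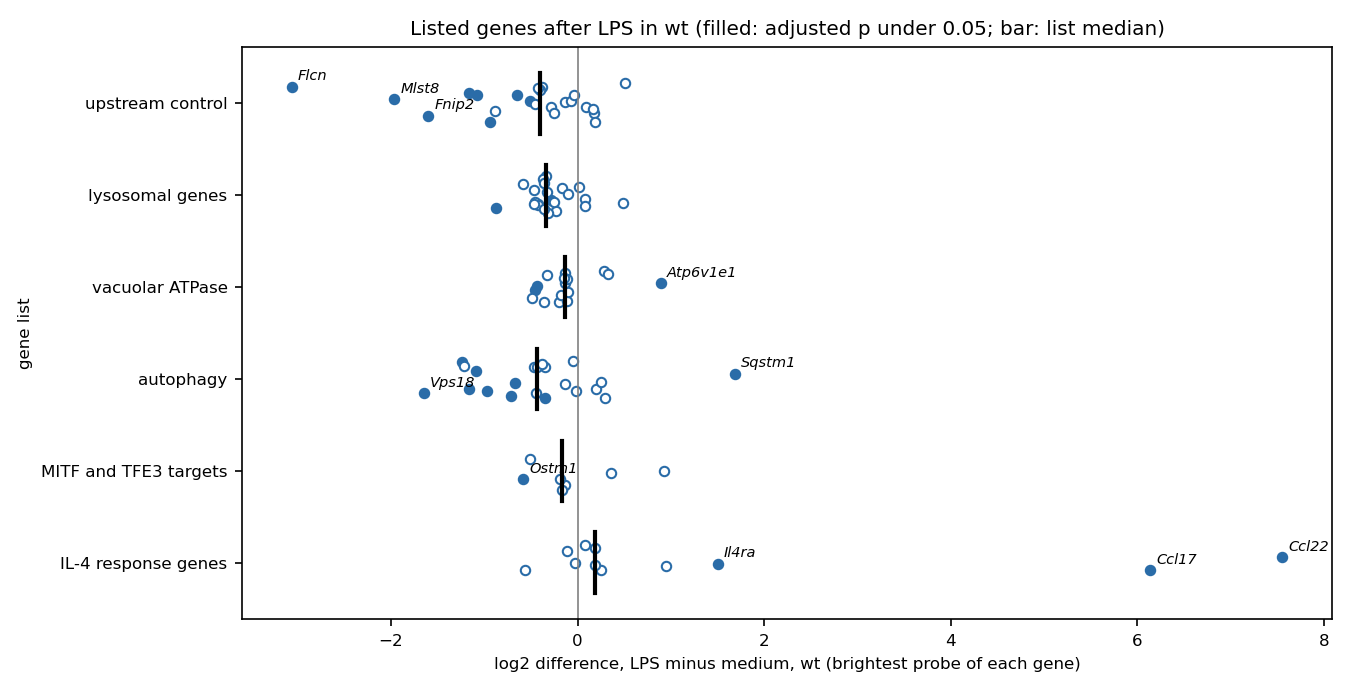
Log2 difference between LPS and medium in wt BMDM (horizontal axis) for the genes of the 6 lists (rows), 1 point per gene, filled where the adjusted p was below 0.05 in limma, with a bar at the median of each list. *Flcn* at -3.06 and *Mlst8* at -1.97 lie farthest to the left, and the chemokine genes *Ccl17* and *Ccl22* farthest to the right. The order of these 2 chemokine genes was turned by normexp background correction, and *Ccl22* was well above background on 1 of 4 medium arrays.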

How the data were processed

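The deposited spot intensity (linear) had been made by the authors with Feature Extraction 11.0.1.1, with the background subtracted and gradients corrected, except on 2 arrays without a gradient fit. The log2 values of the table deposited by the authors, quantile normalized and set relative to each probe's median, served as an alternative. Flagged spots were set to missing and control spots left out. Log2 intensities were averaged per probe and quantile normalized over 55681 probes, and 33391 probes with an NCBI accession were tested. Of 29150 RefSeq probes, 27509 were named through RefSeq annotation of GRCm38.p6.

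All 23 arrays entered 1 model of 6 groups (limma 3.58.1, R 4.3.3, without trend). P-values are two-sided and adjusted by Benjamini and Hochberg over all probes at 0.05. Exact permutation tests compared arrays. The number of arrays limits the precision. Medium and LPS arrays of a culture correlated after removal of group means (11 pairs, r from 0.372 to 0.772 over probes detected on all arrays), as the culture letters in the array names give them. Only the limma fit was tested on simulated data, with independent arrays and an equal spread in all groups. That test does not cover related arrays of a culture, unequal spread or the normalization. Figures were drawn with matplotlib 3.10.9 in Python 3.11.15.

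Named were all family probes, the targeted genes, the 5 genes most like *Tfec* and 3 most like each other member, the 3 genes per list with the largest called LPS change in wt, the 2 with the largest called difference between MK2/3-/- and wt after LPS, the 7 target genes, *Csf3r* and *Il4ra*. Other list members were named after their values were seen. Of the listed genes, 2 are counted in their lists but not reported here by name. The members and lists were chosen with earlier results of these data known. Replicates carry separate culture letters in the array names. The p-values of the main model measure the spread between arrays within the groups, pooled over all groups. That model has no culture block and takes the medium and LPS arrays of a culture as independent. Its p-values for LPS against medium therefore do not measure the spread of the change between cultures.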

Additional observations from a re-analysis of the deposited data

Results flagged for a closer look

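Among 30 combinations of a family probe and a group of 4 arrays, 1 array stood apart from the other 3 of its group by Dixon's criterion, which chance meets in about 1 of 20 groups. The *Tfec* signal of MK2-/- LPS replicate 4 was 12.46, while the other 3 arrays lay between 13.00 and 13.11. The same array had the highest *Tfeb* signal of its group (9.10).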

How the results depend on the processing

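With 1 of the 23 arrays left out, the rise of *Tfec* stayed between 4.95 and 5.06 in wt, 5.04 and 5.46 in MK2-/- and 4.93 and 5.22 in MK2/3-/- BMDM, and it was called under every alternative run. The methods' t-test, adjusted in the same way, did not call *Mitf* (brighter probe) in wt (1.46 on log2 values, 1.53 on linear values), MK2-/- (1.40 and 1.52) or MK2/3-/- BMDM (1.10 and 1.16), nor, on log2 values, *Tfeb* in wt (-2.39) and MK2-/- BMDM (-2.15). It counted 1 family probe as higher in each genotype, with either kind of value, and on log2 values 0 as lower in wt and in MK2-/- BMDM. A fit of only the groups compared called neither *Mitf* (1.40) nor *Tfeb* (-2.15) in MK2-/- BMDM and counted 0 as lower there. Scaling to the 75th percentile called *Tfe3* (brighter probe) in each genotype (0.55, 0.64 and 0.75), counted 5 family probes as higher in wt BMDM, and turned *Lamp1* to 0.16 in MK2-/- and 0.11 in MK2/3-/- BMDM, *Clcn7* to 0.090 and *Gabarapl2* to 0.017 in wt BMDM. This scaling also shifted the median of all genes upwards relative to quantile normalization. Which of these scalings comes closer to the RNA amounts was not tested. Without the 2 MK2/3-/- medium arrays of lowest and highest detection, chosen after seeing the data, *Mitf* in MK2/3-/- BMDM was not called (1.19).

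With 1 array left out, *Mitf* ranged from 1.08 to 1.69 in MK2-/- and from 0.89 to 1.35 in MK2/3-/- BMDM, and *Tfeb* from -2.61 to -1.69 in MK2-/- BMDM. The count of family probes called higher ranged from 1 to 3 in MK2-/- and from 2 to 4 in MK2/3-/- BMDM, and the count called lower from 0 to 1 in MK2-/- BMDM. Differences near 0 changed sign: *Tfec* between MK2/3-/- and MK2-/- BMDM after LPS (-0.27 to 0.053), its response in MK2/3-/- against wt (-0.075 to 0.22) and against MK2-/- BMDM (-0.41 to 0.043, and 0.0048 without the 2 arrays lacking a gradient fit), that of *Il4ra* in MK2/3-/- against wt BMDM (-0.32 to 0.41, -0.0068 with normexp correction and -0.058 without the arrays lacking a gradient fit), *Atp6v0d2* (-0.48 to 0.21) and *Ctsk* in wt BMDM (-0.87 to 0.48). The cause of these moves was not tested.

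With the culture as a replicate block, paired by the letters in the array names, 5060 instead of 3350 probes were called lower and 3556 instead of 2578 higher by LPS in wt BMDM. Among the family probes the block changed no call other than that of *Tfe3* (dimmer probe) in wt BMDM (0.74). Between MK2/3-/- and wt BMDM after LPS, 264 probes were called higher and 311 lower, against 0 and 8 in a fit of only these groups. LPS arrays of equal replicate number correlated above 0.1 in 9 of 12 pairs across genotypes (median r = 0.382), against 8 of 36 pairs of unequal number (median r = -0.113). The culture letters of the LPS arrays recur in each genotype, but neither the labels nor the methods say that a letter marks 1 experiment, and 3 of the 12 pairs were below this limit, so that the reported values have no such block. The replicate block shared by the genotypes on the LPS arrays, added after seeing the data, left *Tfec* at 0.47 (MK2-/- against wt) and 0.35 (MK2/3-/- against wt) and called no family probe. Relative to wt BMDM it called 1 probe higher and 1 lower in MK2-/- (5 and 5 without it) and 180 higher and 122 lower in MK2/3-/- BMDM (264 and 311). Relative to MK2-/- BMDM, 0 were higher and 5 lower in MK2/3-/- BMDM (18 and 35).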
